A study of Mus musculus with 20 samples.

Results

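Skeletal muscle transcripts were followed through the developing phalanges of mouse embryos, in a set of 57 genes for muscle structure, excitation, energy supply and muscle cell fate. The genes were taken by symbol from the count tables of embryonic day 17 (E17) and embryonic day 16 (E16), and all 57 were found among the 23991 genes that the tables share. They fall into 7 lists by role: 12 genes of the thick filament and M-band, 10 of the thin filament, 13 of the Z-disc and elastic scaffold, 10 of calcium handling and excitation, 3 receptor subunits of the neuromuscular synapse, 4 of energy supply and 5 myogenic factors. For tests, a gene had to reach 1 CPM (counts per 1000000 of a library after scaling) in at least 4 libraries, which 14873 genes and 48 of the 57 muscle genes did. The 9 muscle genes below that level were Myh2, Mybpc2, Tcap, Xirp1, Xirp2, Trdn, Chrnd, Chrng and Myf6.

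The libraries came from digits 1 and 2 of hindlimbs and forelimbs at E17, pooled from 10 embryos, and at E16, pooled from 20 embryos. Each limb and stage gave 1 library of each of 5 elements (the distal and proximal phalanges of digit 1, and in digit 2 also a middle phalanx), so 20 libraries stood in a full crossing with no replicate of any combination. No treatment is named in the labels, and the strain and genotype of the embryos are not given in the sources used here. Library totals ran between 75278309 and 111204552 counts at E17 and between 70871735 and 77361898 at E16. A count of 0 allows a level of up to 0.0281 to 0.0418 CPM, taken as 3 counts per library. The labelled tissue was checked by its markers, and the summed lists of cartilage, bone and epidermis had counts in all 20 libraries. Of the 6 bone genes, 5 reached the level used for tests. The bone list shares Col1a1 with a tendon list. Their sums ran close, between 2286 and 7362 CPM for bone and between 2275 and 8026 CPM for tendon at E17, so they are not separate measures. In summed CPM the cartilage list stood between 120 and 334 at E17 and between 308 and 1327 at E16, and the epidermis list between 32369 and 57754 at E17 and between 10051 and 20752 at E16.

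A striated muscle fibre contracts when myosin of the thick filament pulls on actin of the thin filament inside the sarcomere, which is bounded by Z-discs and spanned by the elastic protein titin. Acetylcholine binding at the synapse depolarises the fibre, a voltage sensor opens the calcium release channel of the sarcoplasmic reticulum, and calcium binding to troponin frees actin for myosin. Fibres form by fusion of myoblasts under the myogenic factors Myf5, Myod1, Myog and Myf6, while Pax7 marks muscle progenitors. Developing fibres use embryonic and neonatal myosins and many slow or cardiac isoforms before the adult ones. The digits themselves are moved mainly by long tendons from muscles nearer the body and by short muscles of the paw.

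The promoters of the muscle genes were searched for the letters of sites that muscle regulators are known to bind, since 50 of the 57 genes had their highest level in the same library of each stage. RefSeq gave the 250 bases before the start of 41 of the 57 genes and of 27025 genes in all (build GRCm38.p6). Missing from that table were Myom2, Neb, Tnni2, Tnnt3, Actn3, Myot, Myoz1, Tcap, Xirp1, Cacng1, Jph1, Srl, Trdn, Chrnd, Myf6 and Myod1. CAGCTG, an E-box that reads the same on both strands and is bound by Myod1 and Myog, stood in 17 of the 41 promoters (41.5%) and in 14.7% of all promoters. These were the promoters of Myl1, Mylpf, Mybpc1, Acta1, Tnni1, Des, Klhl41, Myoz2, Atp2a1, Cacna1s, Casq1, Cav3, Chrna1, Chrng, Ckm, Mb and Pygm. A CArG box, the site of serum response factor, stood in 4 (9.76%, against 1.62% of all), namely those of Myom1, Acta1, Actc1 and Ldb3. A MEF2 site stood in 7 (17.1%, against 3.42%), those of Myh1, Myh8, Klhl41, Myoz2, Ttn, Xirp2 and Casq2. TATAAA, which can lie inside a MEF2 site, stood in 6 (14.6%, against 14.3%). All motifs were searched on both strands, and a match is a run of letters and not a measured site. The promoters of 2 synapse receptor subunits, 1 enzyme and 1 actin with E-boxes are shown 5′ to 3′ on the gene's strand, with CAGCTG in capitals and, in Acta1, the CArG box as the later run of capitals. Chrng encodes the gamma subunit of the embryonic acetylcholine receptor and lies on the plus strand (chr1:87205561-87205810), Chrna1 its alpha subunit on the minus strand (chr2:73580339-73580588), Ckm muscle creatine kinase on the plus strand (chr7:19410844-19411093), and Acta1 skeletal alpha actin on the minus strand (chr8:123894776-123895025).
Chrng: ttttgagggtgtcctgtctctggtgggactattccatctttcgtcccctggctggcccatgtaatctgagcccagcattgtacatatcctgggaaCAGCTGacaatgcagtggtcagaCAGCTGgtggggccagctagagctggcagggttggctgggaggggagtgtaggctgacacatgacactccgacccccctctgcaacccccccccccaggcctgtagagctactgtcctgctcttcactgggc
Chrna1: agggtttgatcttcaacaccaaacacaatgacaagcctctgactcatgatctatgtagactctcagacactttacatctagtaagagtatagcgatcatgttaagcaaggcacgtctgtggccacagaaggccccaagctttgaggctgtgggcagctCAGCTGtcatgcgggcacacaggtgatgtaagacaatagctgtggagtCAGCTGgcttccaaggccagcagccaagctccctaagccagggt
Ckm: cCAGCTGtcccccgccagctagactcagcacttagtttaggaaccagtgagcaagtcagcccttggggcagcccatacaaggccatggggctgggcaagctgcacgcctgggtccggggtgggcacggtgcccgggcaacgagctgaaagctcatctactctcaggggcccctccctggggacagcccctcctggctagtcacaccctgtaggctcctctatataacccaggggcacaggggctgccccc
Acta1: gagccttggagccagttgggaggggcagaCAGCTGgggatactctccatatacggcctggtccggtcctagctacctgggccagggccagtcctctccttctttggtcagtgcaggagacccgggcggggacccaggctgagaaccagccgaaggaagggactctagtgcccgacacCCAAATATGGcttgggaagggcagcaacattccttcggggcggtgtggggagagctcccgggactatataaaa
Each receptor promoter held 2 copies of CAGCTG and the other promoters held 1 copy.

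Summed over the 57 genes, muscle transcripts were present in every library at a low level and stood far higher in the proximal segment of forelimb digit 1. At E17 the sum was 781, 328, 469.9, 264 and 205 CPM in the hindlimb, against 1112, 6239, 555, 221 and 202 CPM in the forelimb, listed in each limb with both segments of digit 1 (distal, proximal) before the segments of digit 2 (distal, middle, proximal). At E16 it was 152, 137, 181, 115 and 108 CPM in the hindlimb, against 287, 1935, 198, 124 and 122 CPM in the forelimb, in the same order. The forelimb digit 1 proximal library was the highest of both stages, and the lowest sums lay in digit 2 middle and proximal. That library gave 0.612% of its counts to the 57 genes at E17 (95% Wilson interval 0.610 to 0.614) and 0.196% at E16 (0.195 to 0.197). The other 9 libraries gave 0.0199 to 0.0996% at E17 and 0.0113 to 0.0297% at E16, and these intervals cover counting error only. In pooled tissue, fewer muscle cells and less muscle RNA per cell cannot be told apart.

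**Figure D1:**
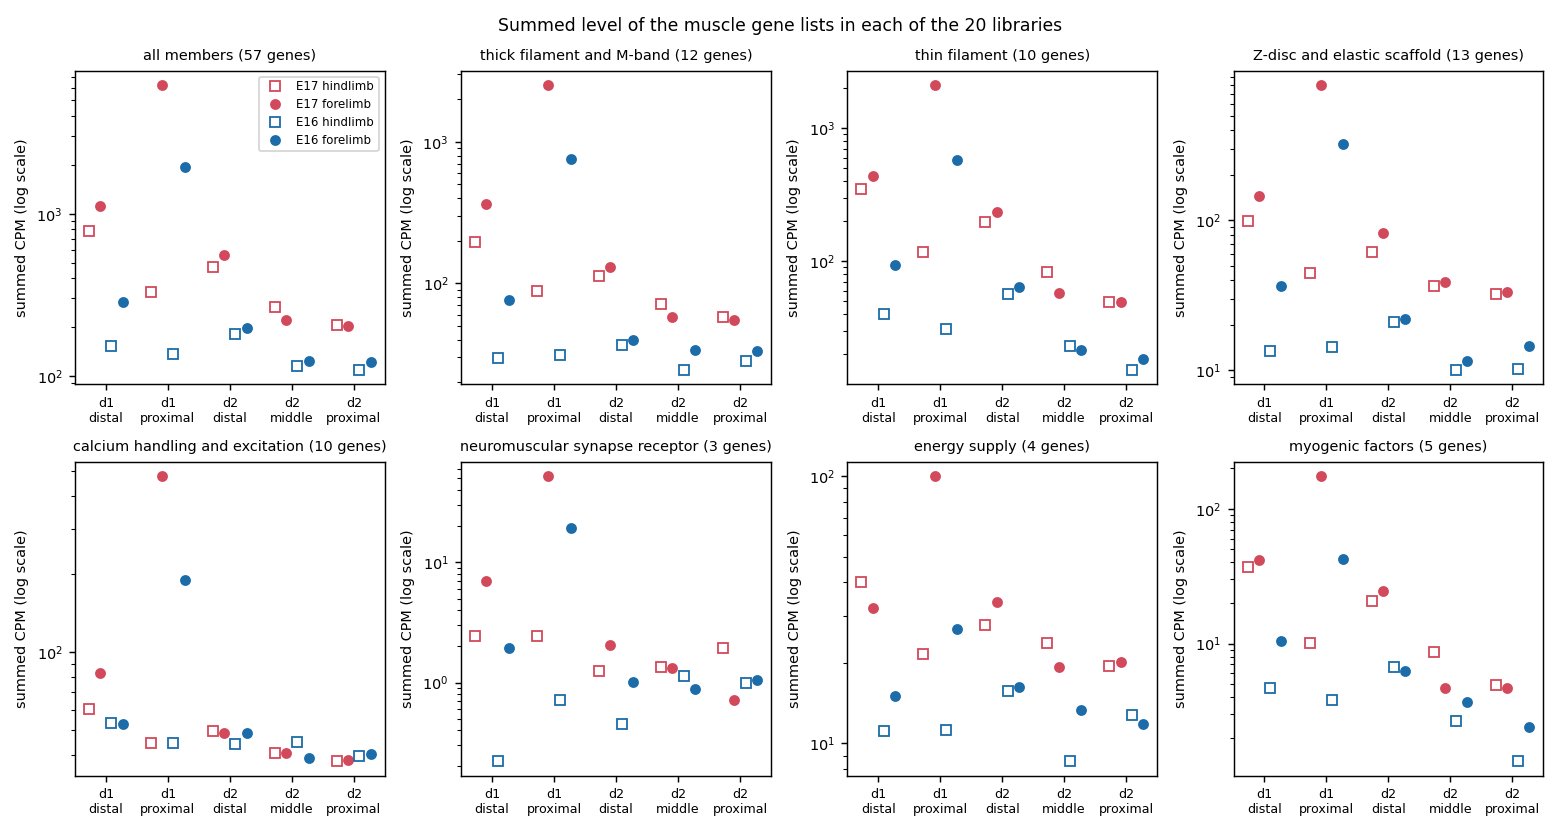
Summed level of all 57 muscle genes and of each of the 7 role lists in each of the 20 libraries, as summed CPM on a log axis, against the element (d1, digit 1; d2, digit 2). Squares are hindlimb and circles forelimb libraries, red E17 and blue E16, with 1 library per point. The forelimb digit 1 proximal library is the highest of its stage in all 8 panels, for example at 2523 CPM at E17 and 757 CPM at E16 for the thick filament list.

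Single genes were examined in every library, starting with the thick filament. Myh3, the embryonic myosin heavy chain, had the highest mean of its list. At E17 Myh3 stood at 37.4, 13.9, 20.1, 9.72 and 4.92 CPM in the hindlimb, against 116, 1153, 23.2, 6.98 and 6.21 CPM in the forelimb. At E16 Myh3 stood at 5.21, 4.49, 8.27, 4.16 and 1.69 CPM in the hindlimb, against 23.5, 419, 6.98, 3.77 and 2.64 CPM in the forelimb. The forelimb digit 1 proximal library stood apart at both stages, and forelimb digit 1 distal came next. Myh8 encodes the neonatal myosin heavy chain, which follows the embryonic one in developing fibres. At E17 Myh8 stood at 12.7, 6.79, 8.73, 4.54 and 1.79 CPM in the hindlimb, against 31.1, 299.8, 11.9, 3.22 and 3.18 CPM in the forelimb. At E16 Myh8 stood at 2.37, 1.37, 2.26, 0.608 and 0.634 CPM in the hindlimb, against 6.25, 81.9, 1.95, 0.667 and 0.622 CPM in the forelimb. Forelimb digit 1 proximal and then distal again led. Myh1, an adult fast myosin, was scarce outside forelimb digit 1 proximal, where it reached 19.6 CPM at E17. Myh2, another adult fast myosin, was scarce in every library. Its highest level was 1.76 CPM at E17, in forelimb digit 1 proximal, and 1.22 CPM at E16, in forelimb digit 2 middle. The medians of Myh1 and Myh2 were 0.244 and 0.207 CPM over the 10 E17 libraries and 0.257 and 0.288 CPM over the 10 E16 libraries. Myh3, Myh8, Myh1 and Myh2 are close copies of each other, as are Acta1 and Actc1, so reads may be split among them in ways the sources do not state.

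In the thin filament, Actc1, the cardiac alpha actin that fetal skeletal muscle also makes, had the highest mean. At E17 Actc1 stood at 98.03, 35.97, 58.98, 21.1 and 13.5 CPM in the hindlimb, against 159, 887, 71.7, 18.3 and 15.9 CPM in the forelimb. At E16 Actc1 stood at 14.5, 11.03, 18.3, 8.25 and 4.57 CPM in the hindlimb, against 39.4, 284, 21.5, 6.53 and 6.54 CPM in the forelimb. Every E17 library was above its E16 partner. Acta1, the skeletal alpha actin, is the main actin of mature fibres. At E17 Acta1 stood at 126, 37.8, 66.7, 32.2 and 15.2 CPM in the hindlimb, against 126, 473, 82.9, 18.1 and 14.6 CPM in the forelimb. At E16 Acta1 stood at 13.3, 10.4, 18.5, 7.46 and 3.87 CPM in the hindlimb, against 26.7, 125, 22.99, 6.87 and 5.04 CPM in the forelimb. Its digit 1 distal libraries at E17 had nearly the same level in both limbs. Per kilobase of transcript, Actc1 reached 602 and 193 CPM per kb in the forelimb digit 1 proximal libraries of E17 and E16, the highest of the 57 genes at each stage. Mylpf, the fast regulatory light chain of myosin, followed at E17 with 367 CPM per kb and stood at 44.6 CPM per kb at E16. Titin, whose longest annotated transcript has 106824 nucleotides, stood at 1.76 and 1.19 CPM per kb in the same libraries.

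The troponins come as slow and fast forms. Tnni1 encodes slow troponin I, the inhibitory subunit. At E17 Tnni1 stood at 21.4, 8.12, 10.7, 3.99 and 2.84 CPM in the hindlimb, against 31.5, 162, 13.7, 3.504 and 2.57 CPM in the forelimb. At E16 Tnni1 stood at 1.93, 1.73, 4.13, 2.701 and 1.35 CPM in the hindlimb, against 6.73, 39.6, 4.67, 1.56 and 1.51 CPM in the forelimb. Forelimb digit 1 proximal was again on top. Tnni2 is its fast counterpart. At E17 Tnni2 stood at 9.44, 4.61, 6.78, 3.77 and 2.57 CPM in the hindlimb, against 10.1, 32.2, 6.11, 2.69 and 2.59 CPM in the forelimb. At E16 Tnni2 stood at 0.882, 0.7898, 1.04, 0.581 and 0.687 CPM in the hindlimb, against 1.81, 3.95, 1.65, 0.295 and 0.676 CPM in the forelimb. Forelimb digit 1 proximal exceeded the next library by a smaller fold than for Tnni1 at both stages. Tnnt1 is the slow form of troponin T, which binds tropomyosin. At E17 Tnnt1 stood at 25.5, 9.72, 15.7, 7.01 and 4.28 CPM in the hindlimb, against 34.1, 146, 16.9, 6.12 and 3.97 CPM in the forelimb. At E16 Tnnt1 stood at 3.27, 2.44, 5.43, 1.43 and 1.66 CPM in the hindlimb, against 7.14, 21.01, 3.65, 1.58 and 2.001 CPM in the forelimb. The highest library was the same. Tnnt3 is the fast form. At E17 Tnnt3 stood at 23.3, 5.16, 13.6, 4.81 and 4.801 CPM in the hindlimb, against 23.9, 93.3, 14.6, 2.71 and 2.69 CPM in the forelimb. At E16 Tnnt3 stood at 1.44, 1.65, 2.36, 0.554 and 0.595 CPM in the hindlimb, against 2.81, 9.08, 3.29, 1.32 and 0.622 CPM in the forelimb. At E16, 3 of the 10 libraries were under 1 CPM. Tnnc1 is the slow and cardiac form of troponin C, the calcium sensor. At E17 Tnnc1 stood at 16.9, 6.64, 10.3, 4.44 and 2.29 CPM in the hindlimb, against 21.95, 133, 11.7, 4.38 and 1.97 CPM in the forelimb. At E16 Tnnc1 stood at 1.39, 1.103, 3.18, 0.797 and 0.727 CPM in the hindlimb, against 3.88, 18.2, 2.05, 1.14 and 0.149 CPM in the forelimb. The lowest level was in the E16 forelimb digit 2 proximal library. Tnnc2 is the fast form. At E17 Tnnc2 stood at 23.9, 6.86, 10.9, 4.32 and 2.45 CPM in the hindlimb, against 22.7, 79.6, 12.7, 1.56 and 3.06 CPM in the forelimb. At E16 Tnnc2 stood at 1.69, 0.8901, 2.18, 0.675 and 0.396 CPM in the hindlimb, against 2.21, 5.28, 2.18, 1.19 and 0.392 CPM in the forelimb. At E17 the 4 libraries of digit 2 middle and proximal held the lowest values.

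Actn2, the alpha actinin that crosslinks actin at the Z-disc, had the highest mean of the scaffold list. At E17 Actn2 stood at 11.02, 3.89, 5.81, 4.03 and 1.6004 CPM in the hindlimb, against 27.3, 261, 9.82, 3.91 and 2.401 CPM in the forelimb. At E16 Actn2 stood at 1.91, 2.21, 2.76, 1.53 and 1.68 CPM in the hindlimb, against 6.98, 85.1, 3.22, 1.27 and 1.15 CPM in the forelimb. Forelimb digit 1 proximal stood apart as it did for Myh3. Srl encodes sarcalumenin, a calcium-binding protein of the sarcoplasmic reticulum, and led the calcium list. At E17 Srl stood at 31.9, 23.9, 27.5, 24.4 and 22.4 CPM in the hindlimb, against 34.7, 159, 24.5, 24.6 and 20.8 CPM in the forelimb. At E16 Srl stood at 36.3, 31.8, 27.5, 30.7 and 24.7 CPM in the hindlimb, against 33.7, 88.5, 31.05, 26.3 and 26.04 CPM in the forelimb. Outside forelimb digit 1 proximal, its 18 values lay between 20.8 and 36.3 CPM. Eno3, the muscle form of enolase, led the energy list. At E17 Eno3 stood at 16.8, 12.9, 13.8, 14.8 and 13.2 CPM in the hindlimb, against 14.8, 47.8, 15.8, 12.9 and 11.6 CPM in the forelimb. At E16 Eno3 stood at 8.75, 7.51, 11.2, 5.997 and 8.602 CPM in the hindlimb, against 9.395, 13.95, 10.2, 9.53 and 6.14 CPM in the forelimb. Outside forelimb digit 1 proximal its values lay between 11.6 and 16.8 CPM at E17 and between 5.997 and 11.2 CPM at E16.

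The acetylcholine receptor subunits were scarce outside forelimb digit 1 proximal, in the hindlimb libraries of that element too. At E17 Chrna1 stood at 1.37, 1.64, 0.665, 1.19 and 1.6004 CPM in the hindlimb, against 3.44, 24.6, 1.07, 1.32 and 0.541 CPM in the forelimb. At E16 Chrna1 stood at 0.169, 0.439, 0.191, 0.662 and 0.899 CPM in the hindlimb, against 0.896, 10.5, 0.605, 0.6796 and 0.865 CPM in the forelimb. Chrna1 thus stood far above the rest in forelimb digit 1 proximal. Chrnd encodes the delta subunit. At E17 Chrnd stood at 0.337, 0.267, 0.402, 0.0639 and 0.259 CPM in the hindlimb, against 1.16, 11.99, 0.826, 0 and 0 CPM in the forelimb. At E16 Chrnd stood at 0.0519, 0.188, 0.0546, 0.378 and 0.0925 CPM in the hindlimb, against 0.326, 3.26, 0.224, 0.115 and 0.0541 CPM in the forelimb. In 2 E17 forelimb libraries no count of it was found. At E17 Chrng stood at 0.713, 0.523, 0.168, 0.102 and 0.0824 CPM in the hindlimb, against 2.45, 15.6, 0.168, 0 and 0.172 CPM in the forelimb. At E16 Chrng stood at 0, 0.0878, 0.205, 0.0945 and 0 CPM in the hindlimb, against 0.706, 5.38, 0.184, 0.0898 and 0.122 CPM in the forelimb. Chrng reached 1 CPM in 3 of the 20 libraries, all of forelimb digit 1.

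Among the myogenic factors, Myog, which drives differentiation of myoblasts, was the most abundant. At E17 Myog stood at 20.8, 6.03, 12.3, 4.51 and 3.09 CPM in the hindlimb, against 25.8, 97.3, 13.01, 2.97 and 3.07 CPM in the forelimb. At E16 Myog stood at 2.61, 1.33, 2.87, 1.36 and 0.462 CPM in the hindlimb, against 5.47, 15.7, 3.51, 2.14 and 0.852 CPM in the forelimb. At E17 both digit 1 distal libraries followed forelimb digit 1 proximal. Myod1 commits cells to the muscle lineage. At E17 Myod1 stood at 10.4, 2.63, 5.93, 2.57 and 1.33 CPM in the hindlimb, against 11.2, 53.2, 7.49, 1.01 and 0.884 CPM in the forelimb. At E16 Myod1 stood at 1.34, 1.93, 2.78, 0.635 and 0.674 CPM in the hindlimb, against 3.83, 19.8, 1.76, 0.808 and 0.825 CPM in the forelimb. Forelimb digit 1 proximal and distal led at both stages. Myf5 acts beside Myod1. At E17 Myf5 stood at 1.91, 0.367, 0.861, 0.256 and 0.165 CPM in the hindlimb, against 2.07, 11.1, 1.66, 0.248 and 0.3298 CPM in the forelimb. At E16 Myf5 stood at 0.156, 0.1504, 0.628, 0.135 and 0.0925 CPM in the hindlimb, against 0.557, 3.002, 0.329, 0.346 and 0 CPM in the forelimb. Most values were under 1 CPM. Myf6 acts late, in fibres. At E17 Myf6 stood at 1.04, 0.134, 0.1404, 0.422 and 0.0824 CPM in the hindlimb, against 0.501, 2.98, 0.455, 0 and 0 CPM in the forelimb. At E16 Myf6 stood at 0.0389, 0, 0, 0.05403 and 0.0529 CPM in the hindlimb, against 0.0543, 0.592, 0, 0 and 0 CPM in the forelimb. At E16 no library reached 1 CPM. Pax7 marks the progenitors. At E17 Pax7 stood at 3.09, 0.957, 1.37, 0.882 and 0.259 CPM in the hindlimb, against 2.24, 9.97, 2.02, 0.445 and 0.409 CPM in the forelimb. At E16 Pax7 stood at 0.506, 0.401, 0.396, 0.459 and 0.0529 CPM in the hindlimb, against 0.448, 3.33, 0.619, 0.398 and 0.7302 CPM in the forelimb. Forelimb digit 1 proximal held the highest level at both stages.

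Beyond these genes, forelimb digit 1 proximal was the highest library of its stage for 54 of the 57 genes at E17, with Mybpc2, Myoz1 and Xirp2 as the exceptions. At E16 it was the highest for 50 of 57, with Myh2, Mybpc2, Myoz1, Myoz2, Xirp2, Cacng1 and Mb as the exceptions. Its median fold over the second highest library was 4.64 at E17 (1.11 to 13.7) and 4.68 at E16 (1.14 to 35.2). These 2 libraries were singled out because their muscle counts are high, so what is said of them is a description. Where a comparison between groups includes them, its calls are in part set by that choice, and its values without them are given beside it. Leaving them out is a choice by muscle level as well, so the values without them are in part set by it too.

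Set against the hindlimb library of the same element, forelimb digit 1 proximal was at least 4-fold higher in both stages, with 0.05 CPM added to both values, for 38 of the 48 tested muscle genes (79.2%), where 0.941% of all tested genes were. All 10 tested genes of the thick filament and all 4 tested myogenic factors passed that fold, as did 9 of 10 thin filament, 7 of 10 scaffold and 6 of 9 calcium handling genes, Chrna1 and 1 of 4 energy genes. Neb, the giant ruler protein nebulin, stood at 101 CPM in the forelimb against 1.27 CPM in the hindlimb library at E17 and at 67.9 against 0.338 CPM at E16. Atp2a1, the calcium pump of fast fibres, stood at 109 against 1.20 CPM at E17 and at 29.1 against 0.602 CPM at E16. Both thus differed far more than the energy genes. Mb, the oxygen store myoglobin, stood at 4.25 against 1.88 CPM at E17 and at 1.01 against 0.802 CPM at E16. Smpx, a small protein of striated muscle, stood at 14.5 against 5.28 CPM at E17 and at 3.04 against 2.49 CPM at E16. Jph1, a junctophilin that ties the membrane to the sarcoplasmic reticulum, stood at 10.0 against 4.58 CPM at E17 and at 7.28 against 3.91 CPM at E16. Ranked by the smaller of the 2 folds among all tested genes, 7 of the first 10, 23 of the first 50 and 33 of the first 100 were among the 57.

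The other genes of that ranking included further muscle genes. Of 31 tested genes in a list of 42 further muscle genes, 19 passed the 4-fold level. Outside the 57, genes with a high rank included Atp1b4, Gm5563, Mypn, Mylk4, Tbx5, 1110002E22Rik, Lmod3, Mymx and Trim55. Mypn, the Z-disc protein myopalladin, stood at 19.7 CPM in the forelimb against 0.478 CPM in the hindlimb at E17 and at 6.56 against 0 CPM at E16. Mymx, the fusion protein myomixer, stood at 15.1 against 0.601 CPM at E17 and at 3.29 against 0.163 CPM at E16. These levels were low beside those of the contractile genes. Tbx5, a transcription factor of forelimb identity, stood at 89.4 against 3.81 CPM at E17 and at 201 against 8.24 CPM at E16. It is a limb patterning gene rather than a muscle gene, and its level matches the forelimb label.

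Markers of other cells were checked in the same libraries. None of the tested genes for smooth muscle (6), tendon (7), Schwann cells (6), endothelium (6), cartilage (6), bone (5) or epidermis (5) passed the 4-fold level in both stages. Tnnt2, cardiac troponin T, which fetal skeletal muscle also makes, did so, at 85.8 CPM in forelimb digit 1 proximal of E17 and 14.7 CPM at E16. The other heart markers measured there were low. Myh6 was at 5.97 and 0.856 CPM, Myl7 at 0.515 and 0.105 CPM, and Gata4 at 0.284 and 1.72 CPM at E17 and E16. Nppa and Nkx2-5 were not analysed here. The summed smooth muscle list stood at 379.7 CPM in forelimb digit 1 proximal of E17, above the 126 to 266 CPM of the other 9 libraries, and at 197 CPM at E16, within their range of 103 to 276. The summed tendon list, which shares Col1a1 with the bone list, lay within the range of the other 9 at both stages, as did those of endothelium, cartilage and bone. The epidermis list lay below the other 9 at both stages, at 32369 CPM against 32937 to 57754 CPM at E17 and at 10051 against 11815 to 20752 CPM at E16. The Schwann cell list was within their range at E17 (189 CPM) and below it at E16 (113 against 118 to 167 CPM). Whether cells other than skeletal fibres take part in the level of the muscle genes was not tested.

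Fold and transcript length moved together among the 48 tested genes. Members whose longest transcript had 3000 nucleotides or more (19 genes) had a median forelimb to hindlimb fold in digit 1 proximal of 23.8 at E17 and 20.0 at E16, and the 29 shorter ones of 15.1 and 7.70. The Spearman correlation across these genes was 0.389 at E17 and 0.407 at E16, as a description over genes that share libraries. A difference in the same direction was found among the 13785 other tested genes with a length, with median folds of 1.03 for the longer and 0.961 for the shorter at E17 and of 1.09 and 0.876 at E16 (rho 0.191 and 0.377).

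**Figure D2:**
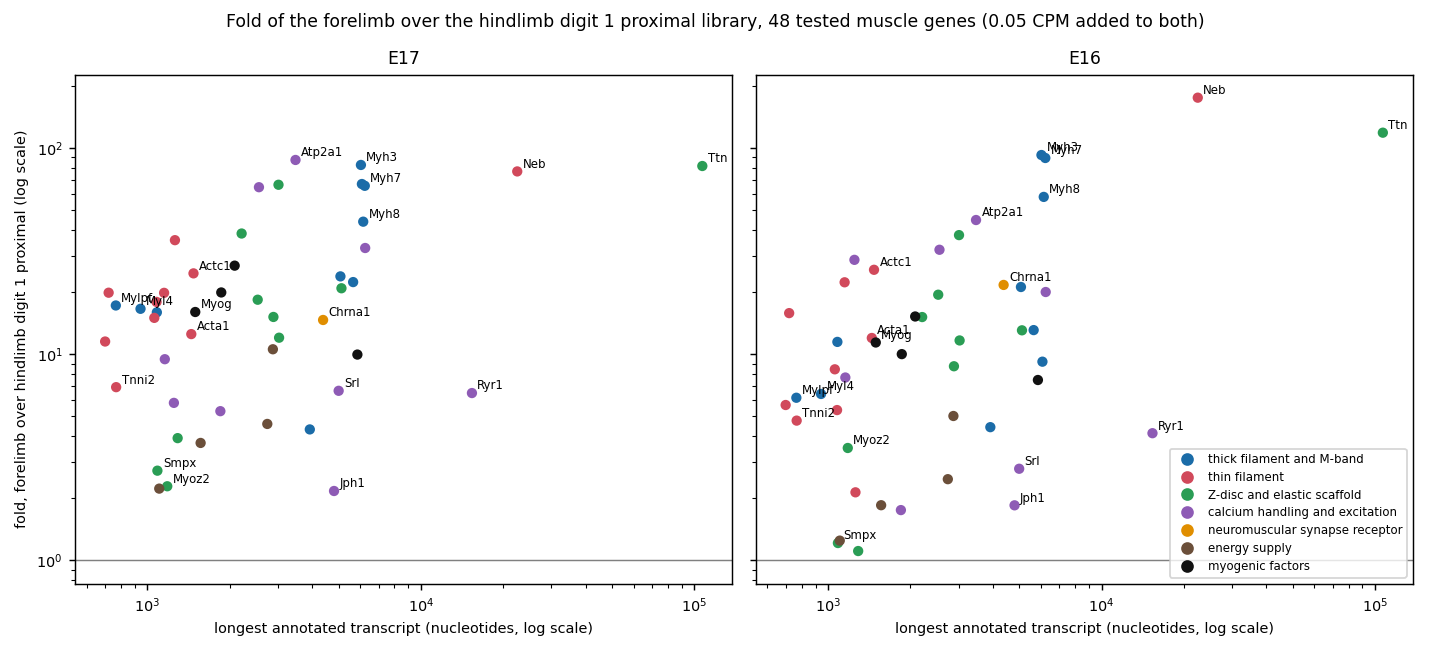
Fold of the forelimb over the hindlimb digit 1 proximal library (log axis, 0.05 CPM added to both values) against the longest annotated transcript in nucleotides (log axis) for the 48 tested muscle genes, at E17 (left) and E16 (right), coloured by role list. Each fold rests on 1 library per limb. Neb, Ttn and the myosin heavy chains Myh3, Myh7 and Myh8 sit high and to the right, and Smpx and Myoz2 low and to the left. Other genes depart from this order. Jph1 (4809 nucleotides) had folds of 2.17 at E17 and 1.85 at E16, and Tnni1 (1150 nucleotides) of 19.8 and 22.3.

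Stage was compared across all elements and limbs with edgeR's quasi-likelihood test. Muscle genes were higher at E17: 38 of the 48 tested genes rose and none fell at an adjusted p under 0.05, with a median log2 fold change of 1.62, while over all tested genes 32.2% rose, 33.6% fell and the median was -0.005. The summed level of the 57 genes was higher at E17 in 10 of 10 matched pairs, by 1.65 to 5.13-fold with a median of 2.50. By role, 8 of 10 thick filament, 8 of 10 thin filament, 9 of 10 scaffold and 4 of 9 calcium handling genes rose, as did Chrna1, all 4 energy genes and all 4 tested myogenic factors. Each stage was counted in its own table from its own embryos and pool size, so stage cannot be told apart from these, and the p-values rest on matched libraries and not on replicate litters.

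In the contractile lists, Mylpf averaged 52.3 ± 82.8 CPM at E17 and 8.36 ± 9.60 CPM at E16 (SD over 10 libraries of different elements), and its log2 fold change was 2.39 ± 0.36 with its SE (adjusted p = 1.34e-05). The SDs exceed the means because forelimb digit 1 proximal stands above the rest within each stage. Tnni2 averaged 8.08 ± 8.89 CPM at E17 and 1.23 ± 1.06 CPM at E16 (2.61 ± 0.31, edgeR adjusted p = 9.56e-07). Myoz2, a Z-disc protein that binds calcineurin, averaged 19.7 ± 8.14 CPM at E17 and 3.17 ± 2.21 CPM at E16 (2.76 ± 0.19, edgeR adjusted p = 2.95e-09), and its 10 E17 values did not overlap its 10 E16 values. All 3 genes were higher at E17 in 10 of 10 matched pairs. Myh3 rose by 1.63 ± 0.57 (edgeR adjusted p = 0.0187) and Actc1 by 1.73 ± 0.42 (adjusted p = 0.00151), also in 10 of 10 pairs.

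Excitation and energy genes moved unevenly. Cacng1, a subunit of the voltage sensor channel, averaged 3.61 ± 2.82 CPM at E17 and 0.839 ± 0.531 CPM at E16, and rose by 2.06 ± 0.38 (edgeR adjusted p = 0.000125). Atp2a1 rose by 2.17 ± 0.51, Cav3, the muscle caveolin, by 1.21 ± 0.35, and Casq1, the calcium store protein of fast fibres, by 1.06 ± 0.33. The other 5 tested calcium genes were not called. Srl stood at -0.03 ± 0.22 (edgeR adjusted p = 0.926), Jph1 at -0.17 ± 0.18, the release channel Ryr1 at 0.14 ± 0.28, the voltage sensor Cacna1s at 0.85 ± 0.48 and the slow calsequestrin Casq2 at 0.80 ± 0.62. Chrna1 rose by 1.26 ± 0.46 (adjusted p = 0.0222, higher in 9 of 10 pairs). Ckm, which regenerates ATP from creatine phosphate, averaged 7.98 ± 6.16 CPM at E17 and 1.34 ± 0.99 CPM at E16 (2.57 ± 0.29, edgeR adjusted p = 4.97e-07), and Eno3 rose by 0.87 ± 0.19. Among the myogenic factors Myog rose by 2.19 ± 0.38 (adjusted p = 6.36e-05), Myf5 by 1.62 ± 0.55, Myod1 by 1.45 ± 0.43 and Pax7 by 1.36 ± 0.45. Outside the calcium list, Myh1, Myom1, Neb, Tmod4 and Actn3 were not called.

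**Figure D3:**
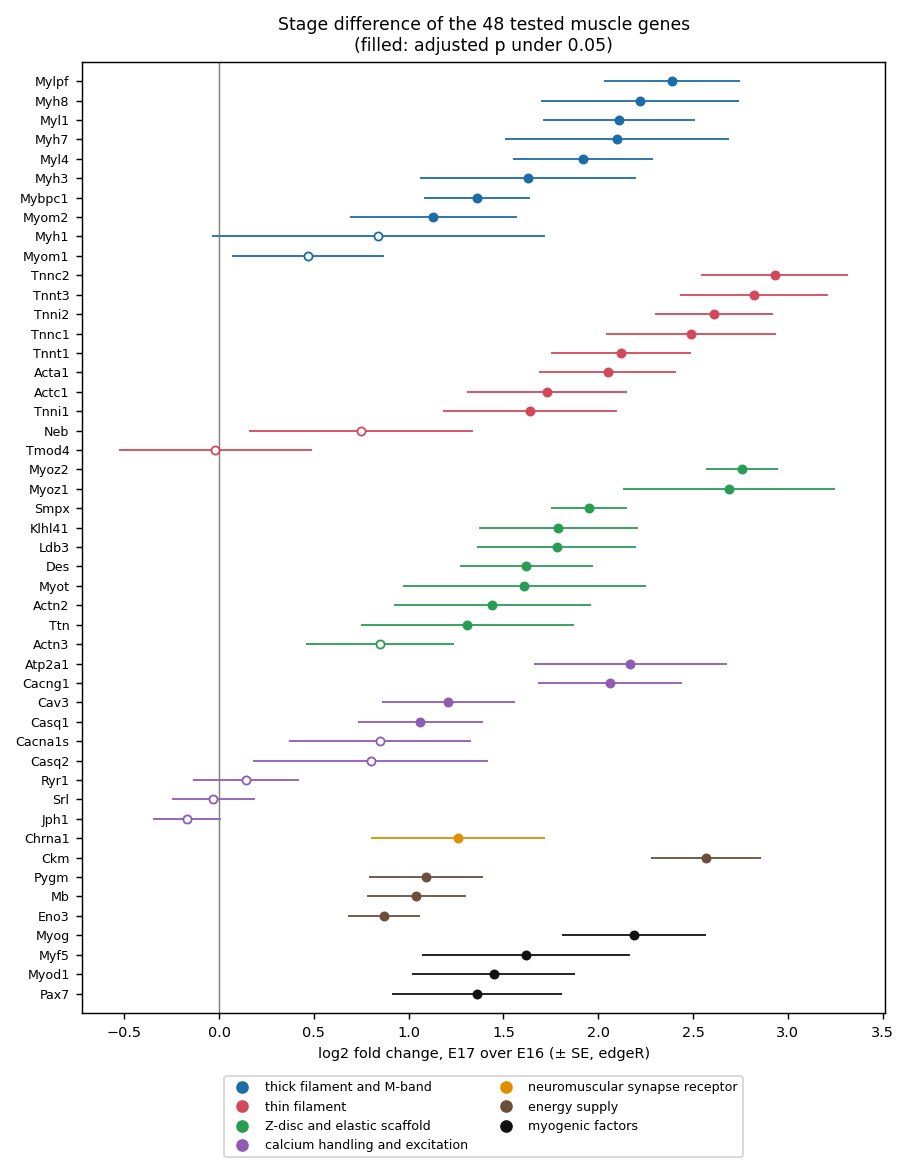
Log2 fold change of E17 over E16 (edgeR, ± SE) for the 48 tested muscle genes, grouped and coloured by role list. Filled points have an adjusted p under 0.05. Apart from 3 genes, Tmod4, Srl and Jph1, all points lie above 0, and the called genes lie between 0.87 and 2.93.

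Without both forelimb digit 1 proximal libraries, 38 of 43 tested muscle genes rose and 1 fell (33.1% and 32% of all genes in that fit), and the gene that fell was Srl (-0.18 ± 0.05, edgeR adjusted p = 0.00588). Myoz1 and Myf5, called on all 20 libraries, did not pass the filter in that fit. Without the E17 forelimb digit 1 proximal library alone, Myh3, Myom2, Actn2, Myot, Ttn, Chrna1, Myf5 and Pax7 were no longer called. Of 31 further muscle genes tested on all 20 libraries, 14 (45.2%) rose and 3 (9.68%) fell, where 32.2% of all genes rose and 33.6% fell. The 3 are transcription factors that other cells also use: Mef2c (-0.43 ± 0.14), Mef2d (-0.27 ± 0.04) and Six4 (-0.68 ± 0.10). Cox6a2, a muscle form of a respiratory chain subunit, rose by 4.07 ± 0.69, Rapsn, which clusters the synapse receptor, by 2.59 ± 0.54, Sln, a small inhibitor of the calcium pump, by 2.52 ± 0.42 and Mymx by 2.51 ± 0.62. In the same comparison all 5 epidermal markers rose and all 6 cartilage markers fell, and the part of such shifts in tissue makeup in the muscle values was not tested. Whether the stage difference varied among the 5 elements was tested with 4 stage by element terms, which called 0 of the 48 muscle genes and 0% of all genes (edgeR). Below an unadjusted p of 0.05 it named 1 muscle gene, Casq1 (F = 3.45), which was chosen after its value was seen.

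Shares of paired isoforms set 2 muscle genes against each other within a library, and were compared over 10 matched pairs of limb and element with an exact two-sided sign-flip permutation test, with Benjamini-Hochberg adjustment over the 5 shares. The fast share of troponin I, as counts of Tnni2 among those of Tnni2 and Tnni1, was higher at E17, and so were the skeletal share of alpha actin and the neonatal share of myosin heavy chain. Tnni2 made up 36.7 ± 11.2% at E17 and 23.7 ± 8.21% at E16 (SD, n = 10 each), a difference of 12.98 points, higher in 9 of 10 pairs (exact p = 0.00391, adjusted 0.00977). Acta1 made up 50.4 ± 7.07% of Acta1 plus Actc1 at E17 and 45.8 ± 6.39% at E16, a difference of 4.66 points in 9 of 10 pairs (exact p = 0.00391, adjusted 0.00977). Myh8 made up 28.8 ± 5.05% of Myh8 plus Myh3 at E17 and 20.9 ± 5.58% at E16, a difference of 7.85 points in 8 of 10 pairs (exact p = 0.0215, adjusted 0.0358). That last call ended when any of 6 single pairs was left out (adjusted exact p = 0.0537 to 0.0716). The fast shares of the other troponins did not pass. Tnnt3 made up 42.0 ± 6.56% at E17 and 33.1 ± 8.31% at E16 (8.95 points, 7 of 10 pairs, exact p = 0.0527, adjusted 0.0659). Tnnc2 made up 48.9 ± 10.1% at E17 and 45.5 ± 13.4% at E16 (3.40 points, 8 of 10 pairs, exact p = 0.434). Without the forelimb digit 2 middle pair the Tnnt3 difference was 11.6 points and passed (adjusted exact p = 0.0260). The pairs are matched libraries and not replicate litters, so these p-values do not measure spread between litters. Each stage was counted in its own table, so a stage difference in a share cannot be told apart from a difference in how reads of similar genes were counted.

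The forelimb digit 1 proximal library, the richest in muscle, had the lowest fast share of troponin I at both stages, 16.6% at E17 (95% Wilson interval 15.97 to 17.2) and 9.06% at E16 (8.13 to 10.1), against 24.2 to 50.1% and 15.9 to 33.8% in the other 9 libraries. Its Acta1 share was likewise the lowest, at 34.8% at E17 and 30.6% at E16, against 44.1 to 60.4% and 40.3 to 51.7%. Its Myh8 share was the lowest at E17 (20.6%) and not at E16 (16.4%), and its Tnnc2 share the lowest at E16 (22.5%) and not at E17 (37.5%). Its Tnnt3 share, 38.9% at E17 and 30.2% at E16, lay among those of the other libraries. These orders describe libraries picked for their muscle level and carry no test, and a share sets counts of genes of different length against each other.

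**Figure D4:**
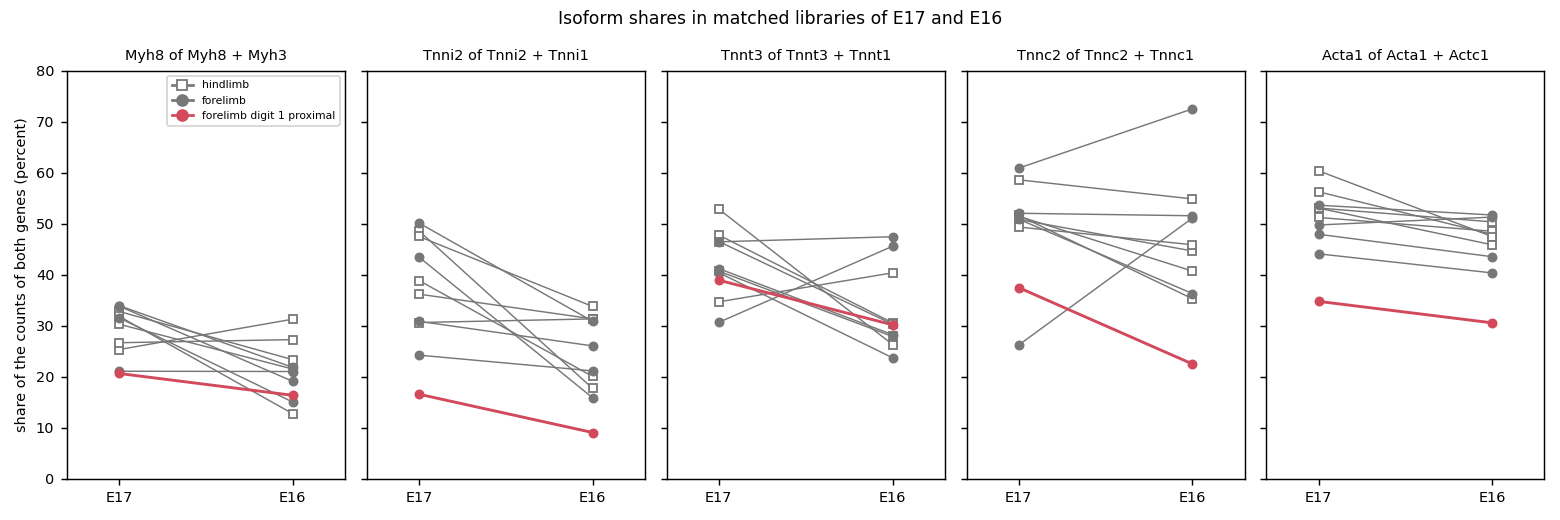
Share of the first gene in the counts of both genes of 5 isoform pairs, in percent, with E17 on the left and E16 on the right of each panel and a line for each of 10 matched pairs of limb and element. Squares are hindlimb and circles forelimb, and the red line is forelimb digit 1 proximal. Lines run higher on the E17 side in 9 of 10 pairs for Tnni2 and for Acta1 and in 8 of 10 for Myh8.

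Hindlimb was compared with forelimb over 10 matched pairs. Fewer muscle genes were called than for stage, and all called genes were lower in the hindlimb: 0 of 48 rose and 8 fell (edgeR), where 9.91% of all genes rose and 11.2% fell, with a median log2 fold change of -0.89 for the muscle genes and -0.006 for all genes. At an unadjusted p under 0.05, 22 of the 48 were called, none of them higher, and DESeq2 called 11 lower and none higher after adjustment. The 8 genes that fell make 16.7% of the 48, little above the background.

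The 8 genes came from 5 of the 7 lists. Mybpc1, slow myosin-binding protein C, averaged 11.9 ± 8.42 CPM in hindlimb and 23.6 ± 23.9 CPM in forelimb libraries (-0.91 ± 0.28, edgeR adjusted p = 0.0275, lower in 8 of 10 pairs). Myh7, the slow myosin heavy chain, averaged 1.28 ± 1.23 CPM in hindlimb and 24.9 ± 52.4 CPM in forelimb libraries (-2.04 ± 0.64, edgeR adjusted p = 0.0315, lower in 9 of 10 pairs). The wide forelimb SD again reflects 1 element. Neb stood at -2.03 ± 0.67 and titin, Ttn, at -1.83 ± 0.62 (adjusted p = 0.0398 and 0.0429 with edgeR). Myoz2 stood at -0.65 ± 0.19 (edgeR adjusted p = 0.0217). Cacng1 averaged 1.20 ± 1.00 CPM in hindlimb and 3.24 ± 3.03 CPM in forelimb libraries (-1.45 ± 0.38, edgeR adjusted p = 0.0135) and was lower in 10 of 10 pairs, as was Atp2a1 (-1.79 ± 0.55, adjusted p = 0.0299). Pygm, muscle glycogen phosphorylase, stood at -1.05 ± 0.31 (edgeR adjusted p = 0.0231). Neither Chrna1 (-1.23 ± 0.50, adjusted p = 0.0824) nor Myog (-0.96 ± 0.39, adjusted p = 0.0873) was called, and no synapse or myogenic gene was.

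Without both forelimb digit 1 proximal libraries, 4 of 43 fell (8.54% of all genes in that fit) and 0 rose (6.74%), with a median of -0.31: Myh7 at -1.07 ± 0.33, Neb at -1.05 ± 0.33, Ttn at -0.96 ± 0.22 and Atp2a1 at -0.93 ± 0.23 (edgeR). For these 4 genes the difference was of the same sign and smaller. The libraries left out were forelimb ones picked for their muscle level, so a smaller difference follows in part from that choice. A fall of 4 in 43 genes is also near the share of all genes. In the hindlimb against forelimb comparison, 5 of 7 tendon, 4 of 6 Schwann cell and 2 of 6 endothelial markers fell, and 3 of 6 cartilage markers rose, whose part in the muscle values was not tested.

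The limb difference of muscle genes was set apart in 1 element, the one whose forelimb libraries were picked for their muscle level, so the counts by element are given as a description. A fit with 4 limb by element terms called 28 of the 48 muscle genes, where it called 1.3% of all genes (edgeR). They were 8 of 10 thick filament, 7 of 10 thin filament, 5 of 10 scaffold and 5 of 9 calcium handling genes, Chrna1, 2 of 4 myogenic factors and 0 of 4 energy genes. The hindlimb to forelimb ratio of the 57-gene sum was 0.0526 in digit 1 proximal at E17 and 0.0707 at E16, against 0.530 to 1.20 in the other 4 elements. Without both forelimb digit 1 proximal libraries edgeR called 0 of the muscle genes. That element then had hindlimb libraries only, so its limb difference could not be estimated and the 0 covers the other elements. Without the E17 hindlimb digit 1 proximal library it called 12, and without the E16 one 16.

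Distal segments were compared with proximal ones over both digits, stages and limbs. In the fit on all 20 libraries the muscle genes split: 3 of 48 rose distally and 8 fell (edgeR), where 23.3% of all genes rose and 23.5% fell, with a median log2 fold change of -0.07. Both shares are below the background. Myoz1 (1.59 ± 0.62, adjusted p = 0.044), Myoz2 (0.93 ± 0.20, adjusted p = 0.00102) and Ckm (1.24 ± 0.31, adjusted p = 0.00271) were higher distally, in 6, 7 and 5 of 8 pairs. Mybpc1 averaged 7.95 ± 6.32 CPM in distal and 29.4 ± 24.4 CPM in proximal libraries (-2.05 ± 0.31, edgeR adjusted p = 2.64e-05), lower in 8 of 8 pairs. Casq1 (-1.91 ± 0.36) and Jph1 (-0.70 ± 0.20) were lower in 8 of 8 pairs too. Smpx (-1.43 ± 0.22), Cacna1s (-1.95 ± 0.54), Chrna1 (-1.79 ± 0.51, adjusted p = 0.00734), Tmod4, which caps the slow ends of thin filaments (-1.54 ± 0.58), and Pygm (-0.88 ± 0.34) were lower in 7 of 8. No myogenic factor was called, with Myog at 0.71 ± 0.41 (edgeR adjusted p = 0.173). Myoz1, Cacna1s and Tmod4 passed the filter of 1 CPM in at least 4 libraries only with the forelimb digit 1 proximal libraries counted. Those libraries were picked for their muscle level, so these calls are a description.

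The picture changed without both forelimb digit 1 proximal libraries. These are proximal libraries picked for their high muscle level, so leaving them out raises the distal over proximal values in part by that choice. The counts and p-values of that fit are thus a description. In it 34 of 43 tested muscle genes were higher in distal segments and 3 were lower (edgeR), where 22.4% of all genes rose and 21% fell. The median was 1.35 for the muscle genes and 0.013 for all genes. All 9 thin filament genes rose, as did 8 of 9 thick filament, 8 of 9 scaffold, 5 of 8 calcium handling, 2 of 4 energy and 2 of 3 myogenic genes. Acta1 stood at 1.80 ± 0.19 (edgeR adjusted p = 1.05e-06), Actc1 at 1.69 ± 0.19 (adjusted p = 2.33e-06), Tnnc1 at 1.95 ± 0.30 and Myl1, the essential light chain of fast myosin, at 1.75 ± 0.25. Myog stood at 1.88 ± 0.23 (edgeR adjusted p = 5.49e-06) and Myod1 at 1.67 ± 0.33. The genes that were lower distally in both fits were Mybpc1 (-1.58 ± 0.30), Smpx (-1.16 ± 0.24) and Casq1 (-1.51 ± 0.40). Chrna1 was not called (-0.43 ± 0.43, edgeR adjusted p = 0.461), nor were Cacng1, Jph1, Mb, Pygm and Pax7. Myoz1, Cacna1s and Tmod4 were not tested in that fit.

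The sums show the same split. The distal to proximal ratio of the 57-gene sum was 0.178 at E17 and 0.148 at E16 in forelimb digit 1, against 1.11 to 2.75 in the other 6 pairs. Of 31 tested further muscle genes, 0 rose and 7 (22.6%) fell distally on all 20 libraries, where 23.3% of all genes rose and 23.5% fell. Without the pair of libraries 9 of 27 rose and 5 fell, where 22.4% of all genes rose and 21% fell. The shares that fell were thus near those of all genes in both fits. Among other cells on all 20 libraries, 5 of 5 epidermal and 4 of 5 bone markers rose distally, and 6 of 6 endothelial, 5 of 6 Schwann cell, 6 of 7 tendon and 4 of 6 smooth muscle markers fell, whose part in the muscle values was not tested.

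**Figure D5:**
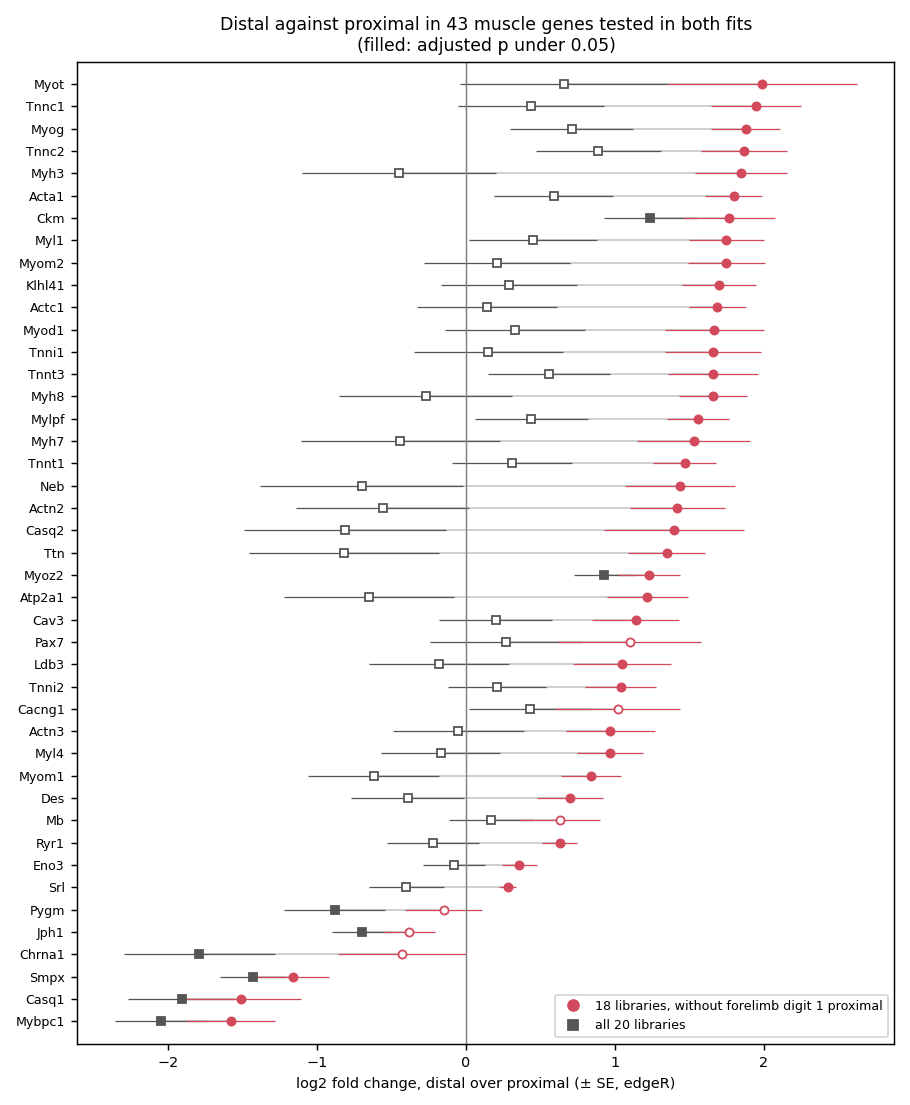
Log2 fold change of distal over proximal segments (edgeR, ± SE) for the 43 muscle genes tested in both fits, on 18 libraries without forelimb digit 1 proximal (red circles) and on all 20 libraries (grey squares). Filled points have an adjusted p under 0.05. Most genes move to the right without those libraries, and Mybpc1, Casq1 and Smpx stay left of 0 and filled in both. The libraries left out are proximal ones picked for their high muscle level.

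Middle and proximal segments of digit 2 differed little in muscle genes. None of the 48 was called in either direction by edgeR, where 1.85% of all genes rose and 1.93% fell, and at an unadjusted p under 0.05 it named 1 gene. DESeq2 also called 0, with 4 at an unadjusted p under 0.05. That edgeR gene was Myh1, at 0.598 ± 0.418 CPM in middle and 0.0561 ± 0.0668 CPM in proximal libraries (SD, n = 4 each, 3.84 ± 1.48, edgeR adjusted p = 0.214). The smallest adjusted p of the other lists belonged to Tmod4 (-1.63 ± 0.80, 0.381), Jph1 (-0.59 ± 0.28, 0.369), Ckm (0.84 ± 0.46, 0.445), Myog (0.91 ± 0.61, 0.576), Myoz1 (1.24 ± 0.95, 0.648) and Chrna1 (-0.26 ± 0.71, 0.93), all from edgeR. The standard errors leave differences of about these sizes undetectable with 4 libraries a side.

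Digit 1 proximal stood above digit 2 proximal in many muscle genes. Its side of the comparison holds the forelimb libraries picked for their muscle level, so the counts and folds with them are a description. In the fit on all 20 libraries 31 of 48 were called higher and 0 lower (edgeR), where 0.814% of all genes rose and 0.403% fell, with a median log2 fold change of 3.19. By role, 8 of 10 thick filament, 9 of 10 thin filament, 6 of 10 scaffold, 4 of 9 calcium handling, 1 of 4 energy and 3 of 4 myogenic genes were called higher. Acta1 stood at 37.8 and 473 CPM in digit 1 proximal of the E17 hindlimb and forelimb and at 10.4 and 125 CPM at E16, against 15.2 and 14.6 CPM and 3.87 and 5.04 CPM in digit 2 proximal (log2 fold change 3.72 ± 0.63). The hindlimb values of digit 1 also lie above those of digit 2, by less. The log2 fold change was 5.46 ± 0.95 for Myh8, 4.04 ± 0.74 for Klhl41, which stabilises nebulin, 4.85 ± 0.91 for Atp2a1, 2.53 ± 0.46 for Ckm and 3.50 ± 0.64 for Myog. Chrna1 stood at 2.36 ± 0.78 and was not called.

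Without both forelimb digit 1 proximal libraries edgeR called 0 of 43 (0.0542% of all genes rose and 0.176% fell), with 22 at an unadjusted p under 0.05, all higher in digit 1, and a median of 0.95. Acta1 then stood at 1.33 ± 0.28 (edgeR adjusted p = 0.0641) and Myh8 at 1.53 ± 0.34 (adjusted p = 0.0837). In that fit only hindlimb libraries of digit 1 proximal were left, so fewer libraries carried the comparison. The count of 31 was also moved by single libraries of either side. It was 0 without E17 forelimb digit 2 proximal, 2 without E16 forelimb digit 2 proximal, 12 without E17 hindlimb digit 2 proximal, 16 without E16 forelimb digit 1 proximal and 19 without E17 forelimb digit 1 proximal.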

How the data were processed

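Total RNA of pooled phalanges was prepared with column kits and DNase and sequenced as paired-end libraries on an Illumina instrument, per the labels' protocols, and the kit as named does not mark strand. The submitters' processing notes name GRCm39, HISAT2 2.2.1 and StringTie 2.1.7; how reads were counted, and on which annotation, is not given in the sources used here. The authors deposited raw counts per gene and, beside them, a normalised signal, which equalled the deposited counts over a constant per library within 5.41e-08%; the signal was scaled within each stage and was not used to compare stages.

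The 2 count tables (28766 rows at E17, 27527 at E16) were joined by symbol and synonym into 23991 genes with 99.0 to 99.5% of the counts. The 14873 genes that reached 1 CPM in 4 libraries or more were fitted with edgeR 4.0.16 in R 4.3.3 (TMM factors, quasi-likelihood test) on element, stage and limb, with 13 residual degrees of freedom, a common biological variation of 18.5% and Benjamini-Hochberg adjustment over all tested genes at 0.05. CPM is per 1000000 counts of the TMM-scaled library. The SE of an edgeR log2 fold change was worked back from its test, as its absolute value over the square root of the quasi-likelihood F. The labels give no replicates of a combination, so the spread comes from the additive fit over matched libraries. Tests by stage or limb within elements added 4 terms (9 residual degrees of freedom). On simulated counts of the stage comparison (14515 genes), 100% of 99 genes changed by a log2 fold of 1 were called, and 0.0279% of unchanged genes were. The simulation gave every gene the common variation and no difference between elements or limbs. Its rates thus do not apply to the muscle genes, whose levels differ between elements, and an uncalled muscle gene may still have changed. Isoform shares took pairs with at least 20 counts and an exact sign-flip permutation test (SciPy 1.17.1). Transcript length is that of the longest protein-coding transcript.

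The members, lists and tests were chosen with earlier results of these data known. Genes named are the highest-mean member of each list, the synapse and myogenic lists, the isoform pairs, and for each comparison the called member with the smallest adjusted p in each list, beside genes that a count of calls turns on. The alternatives were DESeq2 1.42.0 and its size factors, other filters, exact symbols, each stage alone, and leaving out each library or both forelimb digit 1 proximal libraries. Of the highest-ranked genes outside the set, 1 is not reported here.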

Additional observations from a re-analysis of the deposited data

Results flagged for a closer look

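The forelimb digit 1 proximal library of each stage was picked for its high muscle level, and the other 9 libraries of its stage are different elements and not its replicates, so the gaps given here describe that choice and test nothing. Its summed level lay beyond the 9 by more than Dixon's limit for all 57 genes (6239 CPM at E17, 1935 CPM at E16), the thick filament and M-band (2523 CPM at E17, 757 CPM at E16), the thin filament (2109 CPM at E17, 575 CPM at E16) and the Z-disc and elastic scaffold (801 CPM at E17, 323 CPM at E16). The same gap was found for calcium handling and excitation (479 CPM at E17, 191 CPM at E16), the synapse receptor (52.2 CPM at E17, 19.2 CPM at E16), energy supply (99.9 CPM at E17, 26.9 CPM at E16) and the myogenic factors (175 CPM at E17, 42.3 CPM at E16). Gene by gene, 1 library lay beyond the limit for 52 of the 57 genes at E17, in 50 of which it was forelimb digit 1 proximal, and for 45 genes at E16, in 44 of which it was. Dixon's limit is passed by about 1 in 20 groups of like samples, a rate that does not apply to libraries picked for their level or to genes that share them.

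The fit with limb by element terms called 28 of 48 muscle genes (edgeR). Without both forelimb digit 1 proximal libraries it called 0, but that element then had hindlimb libraries only. Its limb difference could not be estimated in that fit, so the 0 does not show where the 28 calls came from.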

How the results depend on the processing

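The labels give no replicate numbers that groups share, so libraries could not be paired by them. Libraries were matched by limb, element and stage instead, as terms of the fit and as the pairs of the isoform shares. Without both forelimb digit 1 proximal libraries, the counts of called muscle genes were 1 lower at E17, 4 lower in hindlimb, and 34 higher and 3 lower in distal segments. They were 0 higher in digit 1 proximal than in digit 2 proximal, and 0 with a limb difference that varied by element. The limb difference of digit 1 proximal could not be estimated, since only its hindlimb libraries were left. Fewer libraries entered that fit. In it 16 genes turned from a negative to a positive distal against proximal log2 fold change: Myh3 1.85, Myh7 1.53, Myh8 1.66, Myl4 0.97, Myom1 0.84, Neb 1.44, Actn2 1.42, Actn3 0.97, Des 0.70, Ldb3 1.05, Ttn 1.35, Atp2a1 1.22, Casq2 1.40, Ryr1 0.63, Srl 0.28 and Eno3 0.36. Both libraries left out are proximal and were picked for their muscle level, so these turns are in part set by that choice. With 10 libraries of 1 stage, edgeR called 2 lower in hindlimb at E16, and 6 by position, of which 4 were lower distally and the rest higher. At E17 it called 0 lower in hindlimb (4 at an unadjusted p under 0.05), 1 higher distally and 3 lower distally. For digit 1 proximal over digit 2 proximal edgeR called 0 at either stage. At an unadjusted p under 0.05 it named 40 at E17 and 27 at E16.

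Leaving out each library in turn gave 29 to 40 genes higher at E17, 2 to 10 lower in hindlimb, 2 to 4 higher and 5 to 9 lower distally, 0 to 36 higher in digit 1 proximal and 12 to 29 with a limb difference that varied by element. The hindlimb count was 2 without E16 hindlimb digit 1 proximal, 4 without E16 hindlimb digit 1 distal or E17 hindlimb digit 1 proximal, and 5 without E17 forelimb digit 1 distal or E16 forelimb digit 2 proximal. The distal count of lower genes was 5 without forelimb digit 1 proximal of either stage or E17 forelimb digit 1 distal. Leaving out each pair moved the Myh8 share difference between 6.60 and 9.38 points and that of Tnnt3 between 7.00 and 11.6 points, and ended or made a call as given above. DESeq2 called 39 higher at E17, 11 lower in hindlimb, 3 higher and 8 lower distally and 37 higher in digit 1 proximal. Counts under DESeq2 size factors, the other filters and exact symbols stayed within 1.5 times. The cause of these changes was not tested. With 1 library per combination, genes under 1 CPM and the smaller shares, such as the E16 forelimb digit 2 proximal Tnnc2 share from 40 counts, are limited by depth.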
